A study of Mus musculus with 38 samples.

Results

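A set of 33 genes that glucocorticoid hormones are known to induce was followed in the adBNST, the anterodorsal bed nucleus that lies along the stria terminalis and is a forebrain relay between limbic regions and the hormonal stress axis. The genes were taken by name from textbook knowledge of glucocorticoid targets, and all 33 were among the 25230 genes of the count table. Of them, 32 passed the filter on low counts, by which 16309 genes were kept, and the iron-binding protein gene Lcn2 did not. Microdissected tissue of wild-type mice gave 38 libraries of poly-A RNA, 9 from stressed males, 10 from control males, 9 from stressed females and 10 from control females. Stressed mice had gone through 6 weeks of chronic variable mild stress, in which stressors such as restraint, swimming, isolation and altered light, bedding or temperature came in random order, and control mice had not. The labels give no age and do not say whether each library came from its own animal, so p-values here measure the spread between libraries.

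Corticosterone, the main glucocorticoid of mice, binds the glucocorticoid receptor Nr3c1, which then enters the nucleus and binds DNA at a palindrome with a short spacer, the glucocorticoid response element, near the genes it induces. The induced genes include kinases, brakes on inflammation and on growth, transcription factors, enzymes that shift fuel use and the metal-binding metallothioneins. In brain several of them are best expressed in glia and in the vessel wall, and their level is often read as a sign of recent hormone exposure, although most also answer to other signals.

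The start regions of 28 of the 33 genes could be read from RefSeq's GRCm38.p6 table, as windows of 300 bases. The full element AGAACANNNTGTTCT, searched on both strands, was present in the windows of 3 of 27025 genes, 0.0111%, and Sgk1 was 1 of them. A shorter form, GNACANNNTGTNC, which lies within the full element, was present for 0.537% of all genes and for 5 of the 28, namely Fam107a, Map3k6, Mt1, Sgk1 and Txnip. These stretches are shown because they hold the matched element, in capitals, and end before the annotated start. A match describes the letters only, and occupancy was not measured.
Sgk1, chr10:21993652-21993764, plus strand: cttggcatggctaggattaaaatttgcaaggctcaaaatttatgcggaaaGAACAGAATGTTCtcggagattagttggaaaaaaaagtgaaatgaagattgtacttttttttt
Fam107a, chr14:8309835-8309947, minus strand: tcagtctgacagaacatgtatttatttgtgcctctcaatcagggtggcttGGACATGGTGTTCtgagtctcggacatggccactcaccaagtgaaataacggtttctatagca
Map3k6, chr4:133240587-133240699, plus strand: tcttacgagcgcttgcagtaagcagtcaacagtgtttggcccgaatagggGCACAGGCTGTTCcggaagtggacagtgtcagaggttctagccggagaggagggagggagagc
Mt1, chr8:94178945-94179057, plus strand: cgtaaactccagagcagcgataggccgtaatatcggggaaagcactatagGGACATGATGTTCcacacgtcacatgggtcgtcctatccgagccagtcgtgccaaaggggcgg
Txnip, chr3:96557735-96557847, plus strand: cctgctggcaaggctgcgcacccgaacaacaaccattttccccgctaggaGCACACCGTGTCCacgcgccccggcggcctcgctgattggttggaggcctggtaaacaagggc
The first matched base lay 188 bases before the start in Sgk1, 120 in Fam107a, 181 in Map3k6, 94 in Mt1 and 172 in Txnip. A gene could have several annotated starts: the 28 genes had 40 windows, and all 27025 genes had 32851. By window, 6 of the 40 held the shorter form, against 0.475% of all windows. Each stretch shown follows 1 annotated start. For Sgk1 that start lies 111706 bases, and for Fam107a 8246 bases, inside the gene as its longest transcripts in GENCODE M21 bound it, against 0 for Map3k6 and Txnip and 7 for Mt1.

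The median library held a total count of 27.3 M, the smallest 9.06 M and the largest 84.8 M. GABA neurons are the main cells of this nucleus. Of 9 markers of them, Gad1 ran from 464 to 872 and Gad2 from 658 to 1468 CPM (counts scaled to library size). Not all 9 were high, as Crh had a median of 21.8 CPM. Slc17a7 of cortical glutamate neurons had a median of 5.39 CPM. In 5 libraries, female stressed 1 and 2, female control 1 and 6 and male control 3, the summed level of 9 oligodendrocyte markers was 20450 to 25690 CPM, against 4484 to 15990 CPM in the other 33. Male stressed library 5 held choroid plexus transcripts, with 8 markers summing to 3242 CPM against at most 78.7 CPM in any other male stressed library. Libraries numbered 6 and above also differed from those numbered up to 5, and the labels do not say what the numbers mean. Many results are therefore given with and without the 5 libraries or within each number set, though not the value of every gene.

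Levels per kilobase of exon, the scale on which genes can be compared, differed widely. Fam107a, an actin-binding protein gene induced by stress, averaged 133.5 ± 45.5 CPM per kilobase (SD, n = 38 libraries). The metallothionein genes Mt2 and Mt1 stood at 133.2 ± 72.9 and 116.2 ± 75.0 CPM per kilobase, and Rhob, a small GTPase gene, at 104.7 ± 24.8. Fam107a, Mt2 and Mt1 were closer to each other than the spread between libraries. Rhob lay below them by less than their SD, but below Fam107a and Mt2 by more than its own. The next, the transcription factor gene Klf9, was clearly below all 4 at 38.4 ± 10.3. Sgk1, the serum- and glucocorticoid-regulated kinase, averaged 19.1 ± 9.88, and Tsc22d3, the leucine zipper protein GILZ that restrains inflammatory transcription factors, 16.8 ± 5.54, also within each other's spread. The lowest tested genes were Angptl4 at 0.900 ± 0.232, Map3k6 at 0.858 ± 0.388 and Cebpd at 0.580 ± 0.338. Lcn2 had 0 counts in 9 libraries and reached 46 counts, 3.04 CPM, in female stressed library 2.

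Steadiness differed as much as level. Cdo1, which encodes an enzyme of cysteine breakdown, kept within 1.51-fold between the lowest and highest library, and Errfi1, a feedback inhibitor of the EGF receptor, within 1.86-fold. The lipid droplet coat gene Plin4 spanned 26.3-fold and the hypoxia-related factor gene Hif3a 15.8-fold, both with female control library 7 at the top. Sgk1 spanned 7.89-fold and Cebpd 7.71-fold.

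Most of these genes had lower levels in males than in females. In control mice 29 of the 32 were below 0, with a median log2 difference of -0.32 (male minus female), where 49.5% of all genes tested were below 0 and their median was 0.0016. In stressed mice, a separate set of libraries, 25 of 32 were below 0, with a median of -0.30 against -0.013 over all genes, and these 25 were below 0 in both conditions. No gene of the set passed edgeR's quasi-likelihood test after Benjamini-Hochberg adjustment over the 16309 genes in either condition. Of all genes 0.0674% passed in controls and 0.0858% in stressed mice. At an unadjusted p under 0.05 stood 12 of 32 in controls, all lower in males, where 4.16% of all genes did, and 9 of 32 in stressed mice, all lower in males, where 11.1% did. Levels of the sexes overlapped for all 33 genes in both conditions, and the share of all genes that overlapped was not computed. In tissue of mixed cells, fewer cells of a type and less RNA per cell cannot be told apart.

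With sex averaged over both conditions, a contrast added after the 2 above were seen and made of the same libraries, 29 of 32 were below 0 with a median of -0.33. Of these, 20 had an unadjusted p under 0.05, all lower in males, against 9.6% of all genes, and again 0 passed, against 0.215%. DESeq2 passed Fam107a and Tsc22d3 here, where it passed 0.368% of all genes, and limma voom passed Hif3a, Sult1a1 and Mertk, where it passed 0.411%. The median was -0.34 among libraries numbered 6 and above (30 of 32 below 0) and -0.26 among those numbered up to 5 (27 of 32). Of the 5 libraries that stood apart 4 were female. Without them, the median was -0.17 in stressed mice, with 27 of 32 below 0 and 2 at an unadjusted p under 0.05, where 3.44% of all genes were. It was -0.23 in controls, with 29 below 0 and 9 under 0.05 against 6.2% of all genes, and -0.20 on average, with 29 and 12 against 4.91%. For the average, the number sets and the fits without the 5 libraries, the share of all genes below 0 is not given here.

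**Figure D1:**
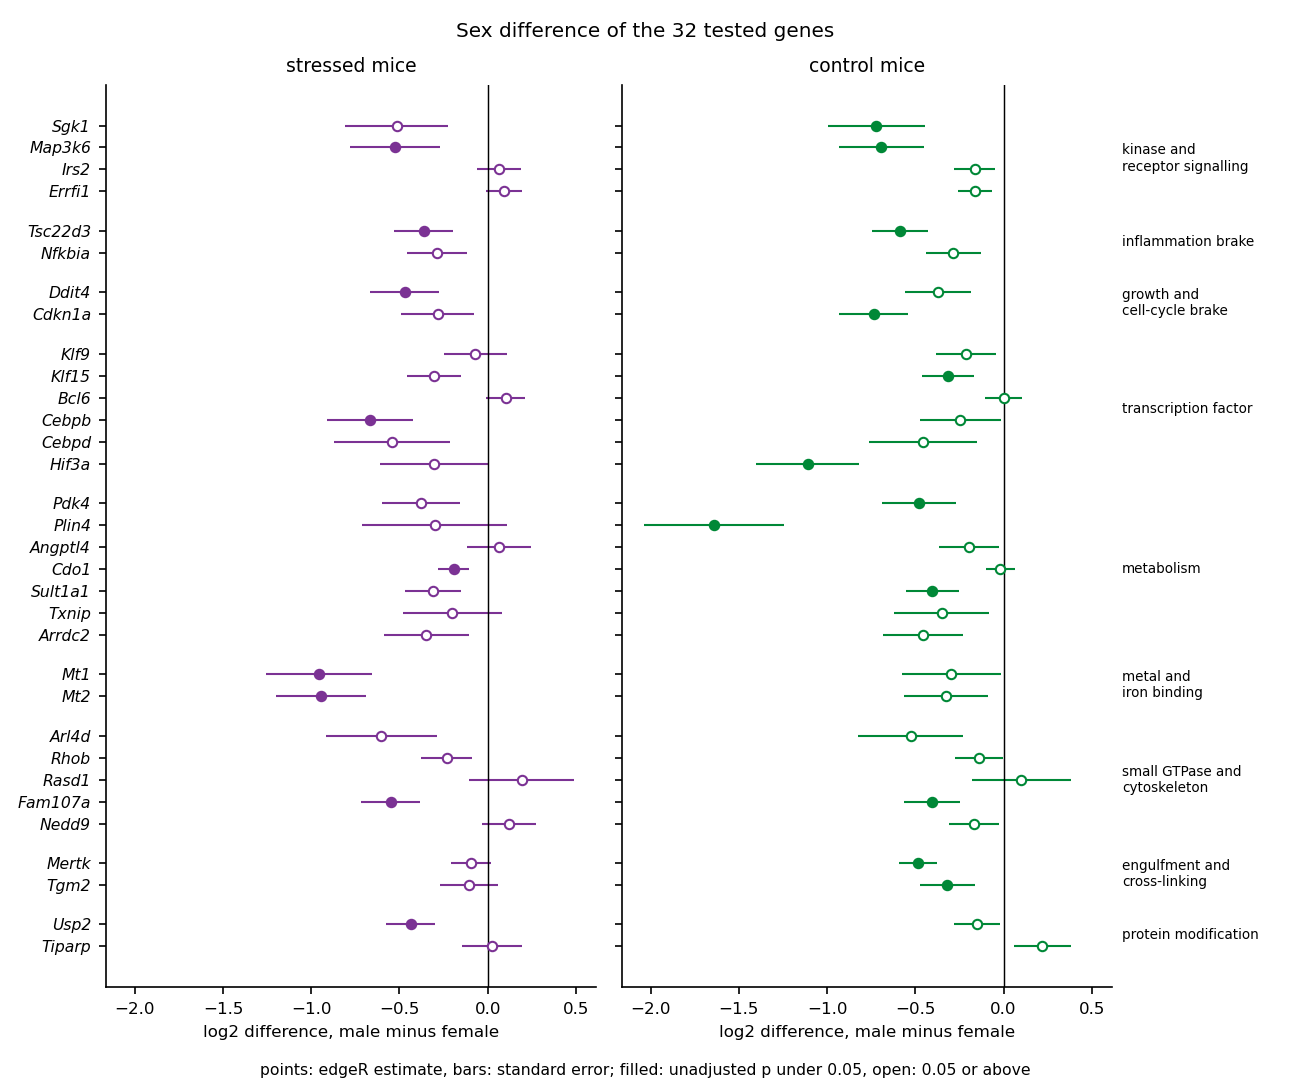
Log2 difference between males and females for the 32 tested genes, ordered by role, in stressed mice (left) and control mice (right), with standard errors; filled points had an unadjusted p under 0.05. In stressed mice 25 points and in control mice 29 points lie left of 0, and the widest is Plin4 in controls at -1.64.

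Both genes that brake inflammation had values below 0 in both conditions. Of these, Tsc22d3 lies on the X chromosome, and the part of that location was not tested. Tsc22d3 ran from 39.9 over a median of 58.3 to 79.4 CPM in stressed males, against 55.4, 70.8 and 111.5 CPM in stressed females. In controls it ran from 46.9 over 66.0 to 80.7 CPM in males, against 55.0, 85.9 and 143.2 CPM in females. All but 1 of the 19 male libraries lay below the median of the females, and 9 of the 19 female libraries lay above the highest male. The log2 difference was -0.36 ± 0.17 in stressed mice and -0.59 ± 0.16 in controls (SE), with an average of -0.47 ± 0.12 (unadjusted p = 0.000195, edgeR adjusted p = 0.0759). Within number sets the average was -0.62 from 6 and -0.31 up to 5, and it was -0.45 without the 5 libraries. Nfkbia, the inhibitor of NF-κB, had -0.29 ± 0.17 in stressed mice and -0.28 ± 0.16 in controls.

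Among small GTPase and cytoskeleton genes Fam107a gave the smallest p on average. It ran from 357 over 413 to 480 CPM in stressed males, against 409, 486 and 1174 CPM in stressed females. In controls it ran from 368 over 447 to 528 CPM in males, against 382, 574 and 904 CPM in females. Every one of the 19 male libraries lay below the female median, and 10 of the 19 female libraries lay above the highest male. The log2 difference was -0.55 ± 0.17 in stressed mice (unadjusted p = 0.00202, edgeR adjusted p = 0.378) and -0.41 ± 0.16 in controls, and -0.48 ± 0.11 on average (unadjusted p = 0.000159, edgeR adjusted p = 0.0681). The 2 highest female libraries were stressed 2 and 1, both among the 5 that stood apart, and without those 5 the difference was -0.18 in stressed mice and -0.25 on average. Arl4d, a GTPase of the ARF family, gave -0.57 ± 0.22 on average. It ran from 23.24 to 44.05 CPM in the 5 libraries that stood apart, against 5.11 to 24.27 CPM in the others. The remaining Rhob and Nedd9 gave -0.18 ± 0.10 and -0.02 ± 0.10, and Rasd1, named for its induction by dexamethasone, is given below.

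The metallothioneins, which bind zinc and copper, had their highest values in stressed females. Mt2 ran from 41.8 over 52.1 to 67.9 CPM in stressed males, against 51.4, 70.7 and 260 CPM in stressed females. In controls it ran from 45.9 over 64.8 to 106 CPM in males, against 57.7, 73.0 and 152 CPM in females. Its log2 difference was -0.94 ± 0.25 in stressed mice (unadjusted p = 0.000648, edgeR adjusted p = 0.288) and -0.33 ± 0.24 in controls. Without the 5 libraries that stood apart the value in stressed mice was -0.38. Mt1, its neighbour on chromosome 8, gave -0.95 ± 0.30 in stressed mice and -0.30 ± 0.28 in controls, with medians of 102 CPM in stressed males and 118 CPM in stressed females. The value in stressed mice was -0.61 without female stressed library 2, the highest, and -0.25 without the 5 libraries.

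All 7 genes of metabolism were below 0 in controls, and 6 of them in stressed mice. Plin4 ran from 2.26 over 4.36 to 9.87 CPM in control males, against 2.64, 11.3 and 59.4 CPM in control females. Female control library 7 held the highest value, and the next was 31.2 CPM. The log2 difference in controls was -1.64 ± 0.40 (unadjusted p = 0.000182, edgeR adjusted p = 0.149), -1.14 without that library, and -1.87 without the 5 that stood apart, where it passed (edgeR adjusted p = 0.0312) with 0.0911% of all genes. In stressed mice Plin4 gave -0.30 ± 0.41. Sult1a1, a sulfotransferase, was below the female median in all 19 male libraries, with -0.36 ± 0.11 on average. Pdk4, the kinase that turns off pyruvate dehydrogenase, gave -0.43 ± 0.15, and the arrestin-domain gene Arrdc2 -0.40 ± 0.17. Txnip, the thioredoxin-binding arrestin, gave -0.27 ± 0.19, Cdo1 -0.11 ± 0.06 and Angptl4, an inhibitor of lipoprotein lipase, -0.07 ± 0.12.

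Mertk, the receptor by which glia engulf dying cells, came closest to the threshold in controls. It ran from 23.2 over 36.2 to 53.8 CPM in control males, against 43.2, 50.8 and 70.3 CPM in control females, a log2 difference of -0.49 ± 0.11 (unadjusted p = 5.76e-05, edgeR adjusted p = 0.0587). The value was -0.55 among libraries numbered 6 and above, -0.41 among those up to 5 and -0.48 without the 5 libraries. In stressed mice it ran from 39.0 over 45.0 to 57.3 CPM in males, against 38.3, 48.5 and 58.2 CPM in females, a difference of -0.09 ± 0.11. Tgm2, a protein cross-linking enzyme, gave -0.11 ± 0.16 in stressed mice and -0.32 ± 0.16 in controls.

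Of the signalling genes, Sgk1 ran from 41.4 over 54.2 to 135.5 CPM in stressed males, against 48.9, 107 and 129.5 CPM in stressed females. In controls it ran from 28.9 over 61.2 to 190 CPM in males, against 41.3, 127 and 228 CPM in females. The female medians lay far above the male ones while the ranges overlapped nearly throughout, and the log2 difference was -0.51 ± 0.29 in stressed mice and -0.72 ± 0.28 in controls. Map3k6, a stress-activated kinase, had -0.52 ± 0.26 in stressed mice and -0.69 ± 0.24 in controls. The insulin receptor adaptor Irs2 and Errfi1 did not share the direction in stressed mice, at 0.07 ± 0.12 and 0.09 ± 0.10 (Errfi1 unadjusted p = 0.37, edgeR adjusted p = 0.719), against -0.16 ± 0.12 and -0.16 ± 0.10 in controls.

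The brakes on growth gave -0.42 ± 0.14 on average for Ddit4, an inhibitor of mTORC1, and -0.51 ± 0.14 for Cdkn1a, the cyclin-dependent kinase inhibitor p21. Of the transcription factors, Hif3a gave -0.30 ± 0.31 in stressed mice and -1.11 ± 0.29 in controls, Cebpb -0.67 ± 0.24 and -0.25 ± 0.23, and Cebpd -0.54 ± 0.33 and -0.46 ± 0.31. Without female stressed library 2, which held the highest level of both, the values in stressed mice were -0.46 for Cebpb and -0.14 for Cebpd, and without the 5 libraries -0.40 and -0.015. Klf15 was lower in 18 of 19 male libraries than the female median, with -0.31 ± 0.11 on average. Klf9 gave -0.07 ± 0.18 in stressed mice and -0.21 ± 0.17 in controls. The deubiquitinase gene Usp2 gave -0.44 ± 0.14 in stressed mice (edgeR adjusted p = 0.378) and -0.15 ± 0.13 in controls. Its highest stressed female values, 120 CPM in library 1 and 102 CPM in library 2, came from libraries that stood apart.

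Only 3 tested genes were above 0 in both conditions, and none of them reached an unadjusted p under 0.05 in either. They were Tiparp, an ADP-ribosyltransferase (0.03 ± 0.17 in stressed mice, 0.22 ± 0.16 in controls), Rasd1 (0.19 ± 0.30 and 0.10 ± 0.28) and the transcriptional repressor Bcl6 (0.10 ± 0.11 and 0.0006 ± 0.11). In controls Tiparp had an unadjusted p of 0.18 and Rasd1 one of 0.721, and in stressed mice Bcl6 had one of 0.366 (edgeR adjusted p = 1, 1 and 0.716). Tiparp ran from 15.6 over 28.7 to 48.3 CPM in control males, against 18.3, 27.3 and 36.7 CPM in control females. Rasd1 ran from 4.24 over 6.75 to 10.0 CPM in control males, against 2.62, 5.62 and 12.9 CPM in control females.

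**Figure D2:**
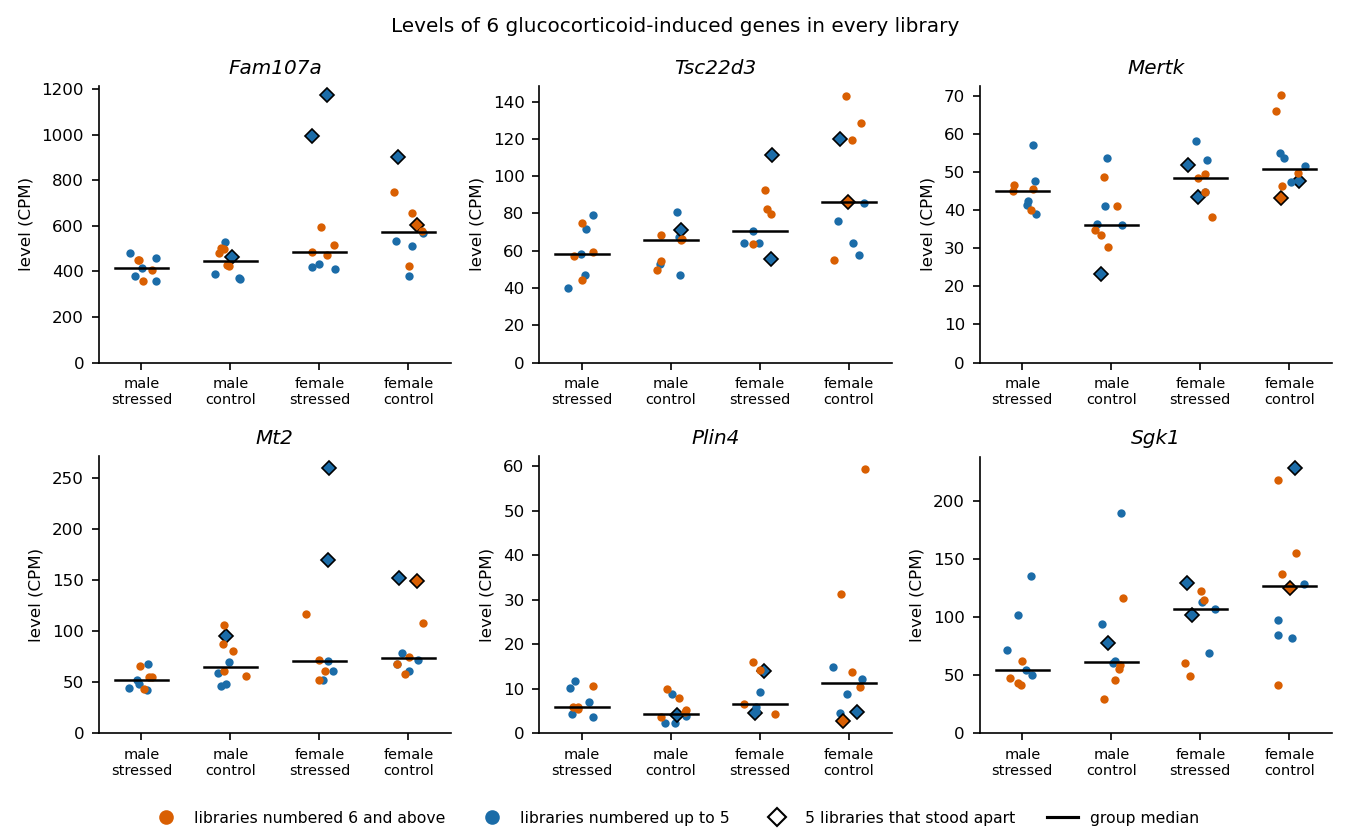
Level of 6 of the genes in each library, in CPM, by group, with the group median as a line; colours give the number set and diamonds the 5 libraries that stood apart. Male and female libraries overlap for every gene, while the highest values of Fam107a (1174 CPM) and Mt2 (260 CPM) are diamonds of stressed females.

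Among lists of cell type markers some held most values on the same side of 0 for sex, and their part in the result was not tested. No striatal, immediate early, endothelial, oligodendrocyte or astrocyte marker passed for sex in either condition. In stressed mice 6 of 6 markers of striatal projection neurons were below 0 in males (median -0.55) and so were 11 of 11 immediate early genes (median -0.52), while 8 of 8 choroid plexus markers were above 0 and 2 of them passed. In controls 9 of 10 endothelial markers were below 0 (median -0.21) and 8 of 9 oligodendrocyte markers (median -0.076). The summed endothelial level ran from 225 to 375 CPM in stressed males and from 188 to 314 CPM in stressed females. In controls it ran from 191 to 376 CPM in males and from 242 to 388 CPM in females. The summed striatal level ran from 540 to 1805 CPM in stressed males and from 893 to 3946 CPM in stressed females, and in controls from 725 to 3039 CPM in males and from 957 to 3415 CPM in females. The summed immediate early level ran from 190 to 547 CPM in stressed males, 275 to 909 CPM in stressed females, 259 to 866 CPM in control males and 242 to 998 CPM in control females. Astrocyte markers, 8 in all, were below 0 for 5 in each condition, with medians of -0.051 in stressed mice and -0.026 in controls. None of these markers was at 0 in every library. Without male stressed library 5, which held the choroid plexus transcripts, the median of the set was -0.27 in stressed mice.

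The list of the receptor and its helpers did not lean to lower levels in males. Of its 14 genes, which are receptors, chaperones, co-regulators and the enzyme Hsd11b1 that regenerates corticosterone in cells, 3 were below 0 in stressed mice (median 0.11), 6 in controls (median 0.014) and 3 on average (median 0.034). Nr3c1 gave 0.06 ± 0.11 in stressed mice and -0.05 ± 0.11 in controls. Among 14 tested genes of a list of 16 further targets, 11 were below 0 on average with a median of -0.18, and 0 of either list passed. Zbtb16, a zinc finger repressor, gave 0.13 ± 0.31 in stressed mice and -1.28 ± 0.30 in controls. Fkbp5, the receptor co-chaperone that stands in both lists and is often the first choice as a readout of glucocorticoid action, gave 0.17 ± 0.13 and 0.02 ± 0.12.

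Under stress no gene of the set passed the test. The series asked for genes that differ between stressed and control mice, by sex. In males 17 of 32 were below 0 (stressed minus control), with a median of -0.075 against -0.022 over all genes, and in females 23 of 32, with a median of -0.089 against 0.0098. By edgeR's test 0 passed in males and 0 in females, where 0% of all genes passed in each, and DESeq2 and limma voom also passed 0. At an unadjusted p under 0.05 stood 2 of 32 in males (4.02% of all genes) and 2 of 32 in females (1.89%). Among libraries numbered 6 and above the female median was -0.27, and among those up to 5 it was 0.035. In males these were -0.12 and -0.039. Levels of stressed and control libraries overlapped for all 33 genes in both sexes, and here too the share of all genes was not computed.

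**Figure D3:**
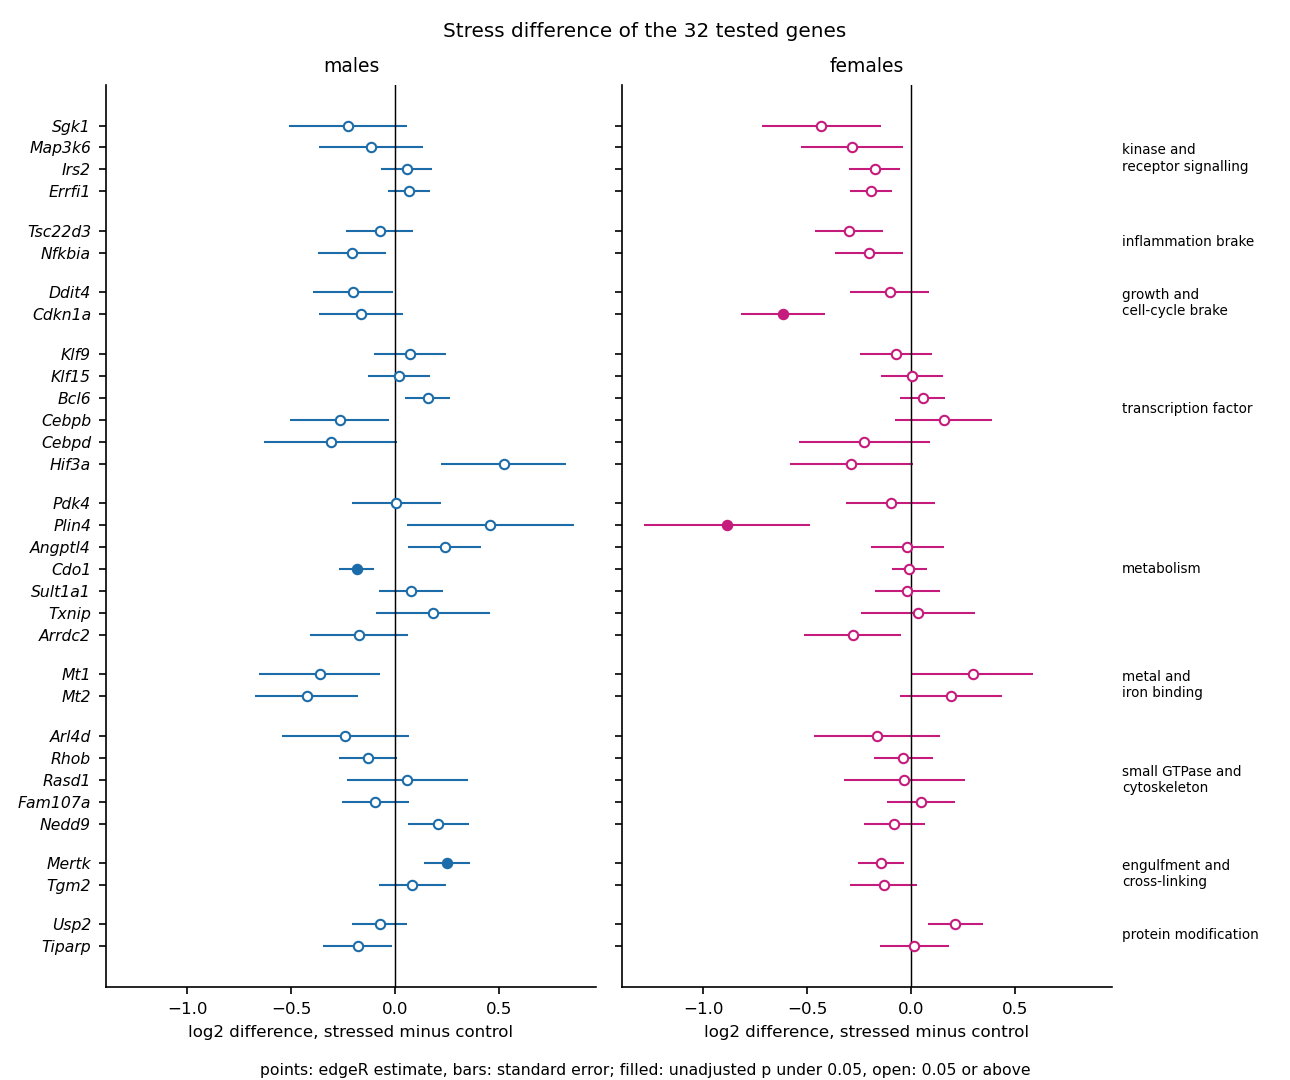
Log2 difference between stressed and control mice for the 32 tested genes, ordered by role, in males (left) and females (right), with standard errors; filled points had an unadjusted p under 0.05. Filled are Mertk and Cdo1 in males and Cdkn1a and Plin4 in females, and none passed after adjustment.

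In females Cdkn1a had the smallest p. It ran from 5.94 over 11.8 to 15.6 CPM in stressed females, against 7.75, 16.2 and 28.3 CPM in control females. The log2 difference was -0.62 ± 0.20 (unadjusted p = 0.00415, edgeR adjusted p = 1), -1.15 among libraries numbered 6 and above and -0.10 among those up to 5. In males it was -0.16 ± 0.20, with medians of 9.26 CPM in stressed and 10.4 CPM in control males. Averaged over the sexes it was -0.39 ± 0.14 (unadjusted p = 0.00962), the single gene of the set below 0.05, where 1.47% of all genes were. In that average 0 of the set and 0% of all genes passed, and 22 of 32 were below 0. The share of all genes below 0 is not given here.

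Plin4 ran from 4.24 over 6.51 to 15.9 CPM in stressed females, against 2.64, 11.3 and 59.4 CPM in control females. Its log2 difference was -0.88 ± 0.40 (unadjusted p = 0.033, edgeR adjusted p = 1), and -0.38 without female control library 7. Errfi1 ran from 20.8 over 25.5 to 29.6 CPM in stressed females, against 21.4, 29.4 and 32.8 CPM in control females (-0.19 ± 0.10, unadjusted p = 0.0638, edgeR adjusted p = 1). Among the genes that were higher in stressed females, Usp2 ran from 52.6 over 64.6 to 120 CPM, against 46.6, 57.9 and 85.2 CPM in control females (0.21 ± 0.13, unadjusted p = 0.119, edgeR adjusted p = 1). Neither it nor the metallothioneins kept a direction across libraries. Mt1 ran from 85.9 over 118 to 521 CPM in stressed females, against 83.4, 120 and 331 CPM in control females (0.30 ± 0.29, unadjusted p = 0.313, edgeR adjusted p = 1). Mt2 gave 0.19 ± 0.25 (unadjusted p = 0.437). Without female stressed library 2, Mt1 gave -0.048 and Mt2 -0.12.

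The best known targets gave stress differences that did not pass in either sex. For Sgk1 stress gave -0.23 ± 0.28 in males (unadjusted p = 0.433, edgeR adjusted p = 0.884) and -0.43 ± 0.28 in females (unadjusted p = 0.138, edgeR adjusted p = 1). For Tsc22d3 the values were -0.07 ± 0.16 (unadjusted p = 0.649) and -0.30 ± 0.16 (unadjusted p = 0.0743). Klf9, which corticosterone induces in hippocampal neurons, ran from 118 over 167 to 258 CPM in stressed males, against 108, 151 and 338 CPM in control males. It ran from 131 over 203 to 250 CPM in stressed females, against 146, 200 and 259 CPM in control females. Its stress differences were 0.07 ± 0.17 in males (unadjusted p = 0.687) and -0.07 ± 0.17 in females (unadjusted p = 0.669).

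In males Mertk had the smallest p for stress. With the levels given above for the 2 male groups, its log2 difference was 0.25 ± 0.11 (unadjusted p = 0.0308, edgeR adjusted p = 0.863). Without male control library 3, which stood apart and held the lowest level, it was 0.20. Hif3a ran from 6.55 over 10.7 to 19.5 CPM in stressed males, against 2.52, 6.69 and 16.7 CPM in control males (0.52 ± 0.30, unadjusted p = 0.0887, edgeR adjusted p = 0.863). Bcl6 ran from 30.3 over 39.7 to 56.1 CPM in stressed males, against 23.4, 38.2 and 48.5 CPM in control males (0.16 ± 0.11, unadjusted p = 0.158). On the lower side, Cdo1 ran from 50.6 over 52.0 to 57.4 CPM in stressed males, against 50.5, 56.8 and 74.0 CPM in control males (-0.18 ± 0.08, unadjusted p = 0.0352, edgeR adjusted p = 0.863). The stressed males thus sat in a narrow band at the low end of the control range. Mt2 gave -0.42 ± 0.25 (unadjusted p = 0.0934), Mt1 -0.36 ± 0.29 (unadjusted p = 0.22) (-0.21 without male control library 3) and Nfkbia, from 11.0 over 14.4 to 18.5 CPM in stressed males against 13.4, 16.3 and 21.2 CPM in control males, -0.21 ± 0.16 (unadjusted p = 0.214). Averaged over the sexes, the smallest p above 0 belonged to Bcl6 (0.11 ± 0.08, unadjusted p = 0.178) and Angptl4 (0.11 ± 0.12, unadjusted p = 0.382), and Nfkbia stood at -0.21 ± 0.12 (unadjusted p = 0.0832, edgeR adjusted p = 1 for all 3).

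The stress difference in males minus that in females, the interaction, passed for 0 of 32 genes, as it did for 0% of all genes. An unadjusted p under 0.05 was reached by 2 of 32, against 4.51% of all genes. These were Mertk at 0.39 ± 0.16 (unadjusted p = 0.0163) and Plin4 at 1.34 ± 0.57 (unadjusted p = 0.023), with Hif3a next at 0.81 ± 0.42 (unadjusted p = 0.0622). The 3 have in common that the female control group held their highest level, 70.3, 59.4 and 39.7 CPM, each time in library 7. Without that library the values were 0.34 for Mertk, 0.84 for Plin4 and 0.61 for Hif3a. Below 0 the smallest p belonged to Mt2 at -0.62 ± 0.35 (unadjusted p = 0.0838), Mt1 at -0.66 ± 0.41 (unadjusted p = 0.117) and Usp2 at -0.29 ± 0.19 (unadjusted p = 0.136), all with an edgeR adjusted p of 0.845. Without the 5 libraries that stood apart these were -0.27, -0.23 and -0.11. The sex difference was therefore not shown to differ between stressed and control mice for any of the genes.

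Beside the stress values, 10 of 10 endothelial markers (median -0.18) and 9 of 9 oligodendrocyte markers (median -0.17) were below 0 in females, and 11 of 11 immediate early genes (median -0.45) and 6 of 6 striatal markers (median -0.31) in males. Their summed ranges per group are given above for all but the oligodendrocyte markers. Those ran from 4650 to 15330 CPM in stressed and from 4491 to 21170 CPM in control males, and from 4484 to 25690 CPM in stressed and from 4546 to 23140 CPM in control females. Their part in the stress values was not tested. Of the receptor pathway list 6 of 14 genes in males and 9 of 14 in females were below 0 for stress, and of the further targets 10 of 14 and 7 of 14, with 0 passing.

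More genes of the set passed between the number sets than for stress or sex. Between libraries numbered 6 and above and those up to 5, within groups, 12 of 32 passed edgeR's test with 8 higher and 4 lower, against 45.5% of all genes. Their share, 37.5%, was no higher than that background. Txnip ran from 23.1 over 36.9 to 64.4 CPM in libraries numbered 6 and above, against 13.3, 19.9 and 31.4 CPM in those up to 5 (log2 difference 0.92 ± 0.13, edgeR adjusted p = 4.44e-07). Rasd1 ran from 4.39 over 9.19 to 13.9 CPM, against 1.88, 4.43 and 7.58 CPM (0.97 ± 0.14, edgeR adjusted p = 5.74e-07). Both had higher medians in the later numbers, with ranges that still met. Klf9 ran from 108 over 151 to 214 CPM, against 111, 207 and 338 CPM (-0.49 ± 0.09, edgeR adjusted p = 4.87e-05). The other 6 that rose were Map3k6 (0.45 ± 0.16), Tgm2 (0.42 ± 0.09), Nedd9, a focal adhesion scaffold (0.36 ± 0.09), Angptl4 (0.36 ± 0.11), Irs2 (0.27 ± 0.07) and Klf15 (0.26 ± 0.10). The other 3 that fell were Tiparp (-0.27 ± 0.11), Rhob (-0.26 ± 0.09) and Errfi1 (-0.19 ± 0.06). Mt2, Mt1 and Fam107a differed by -0.03 ± 0.18, -0.09 ± 0.21 and -0.04 ± 0.12 between the sets.

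The 5 libraries that stood apart, described here without a test, did not overlap the other 33 in Mt1 or Rhob. Mt1 ran from 233 over 331 to 521 CPM in them, against 77.0, 103.5 and 190 CPM in the other 33. Rhob ran from 338 over 362.5 to 439 CPM, against 175, 232.5 and 282.5 CPM. No other gene of the set lacked overlap, and the share of all genes without it was not computed. Lack of overlap was not particular to the set. The oligodendrocyte marker Mbp (9034 to 13350 against 1830 to 6429 CPM) and the astrocyte marker Gfap (121 to 458 against 47.7 to 117 CPM) also lacked it. Other markers, such as Ermn of oligodendrocytes, overlapped. Rhob was also among the 4 that were lower in libraries numbered 6 and above. The ratio of medians was 3.20 for Mt1, 2.99 for Arl4d, 2.62 for Cebpd, 2.51 for Mt2, 2.06 for Cebpb, and 2.01 for both Fam107a and Arrdc2. Ddit4 and Map3k6 followed at 1.90. The sex values of Arl4d, Arrdc2, Ddit4 and Map3k6 without the 5 libraries are not given here. On the other side it was 0.524 for Hif3a, 0.621 for Plin4 and 0.661 for Nedd9.

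**Figure D4:**
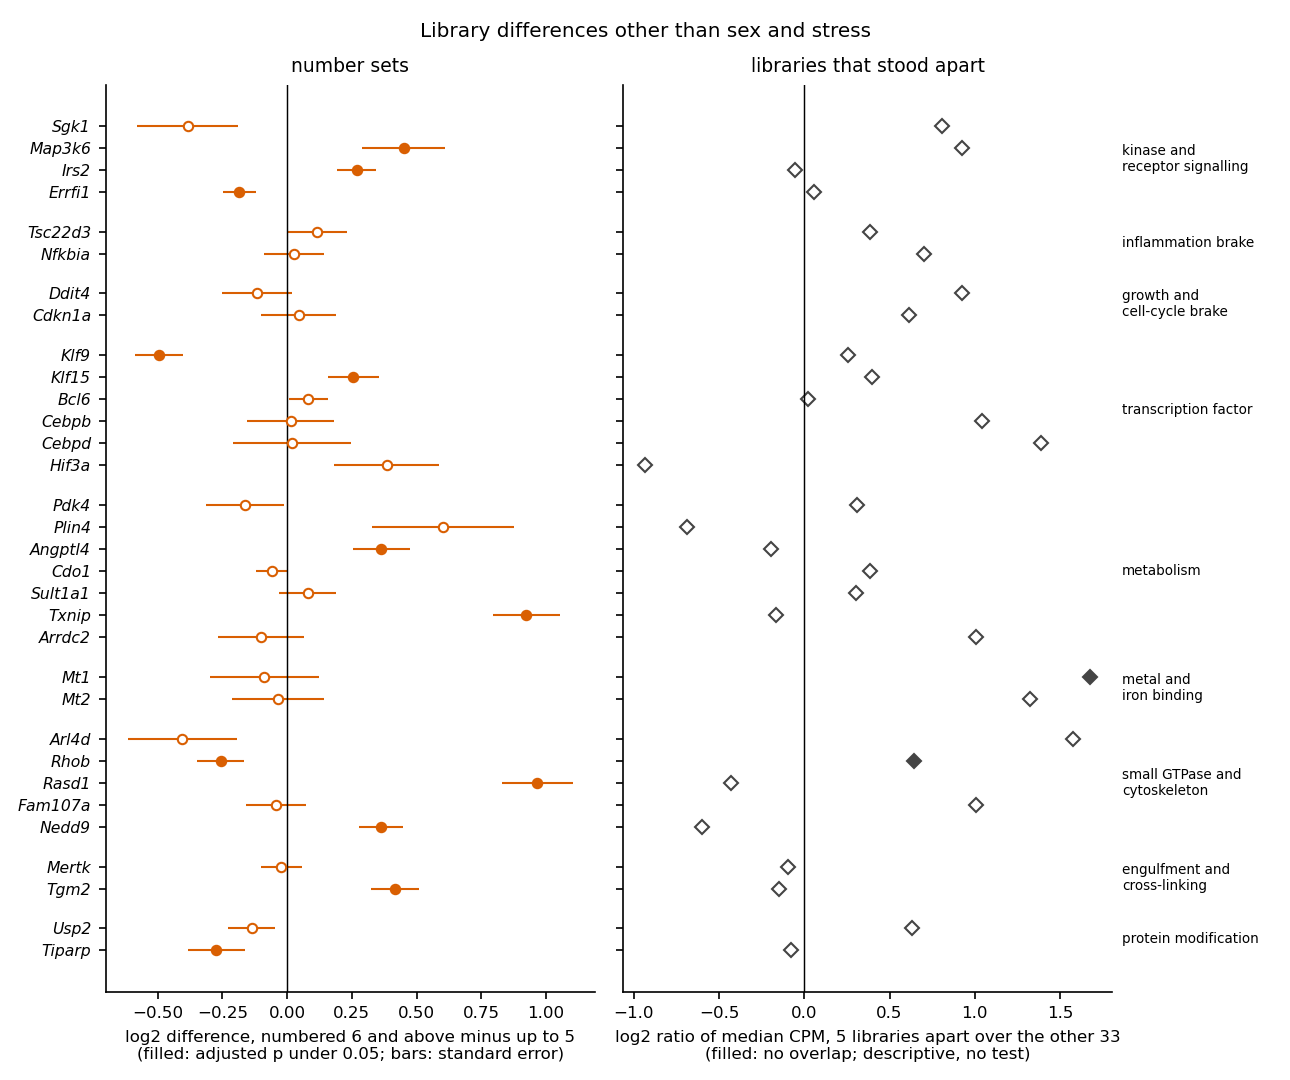
Left, log2 difference between libraries numbered 6 and above and those up to 5 with standard errors, filled where the edgeR adjusted p was under 0.05; right, log2 ratio of the median CPM of the 5 libraries that stood apart over that of the other 33, filled where the values did not overlap. Of the 12 filled genes on the left Txnip and Rasd1 lie farthest from 0, Mt1 and Rhob are filled on the right, and Rhob is filled in both.

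Pairs of these genes had a higher median correlation over libraries than pairs of all genes. Among the 496 pairs, the median Pearson r of log2 CPM, centred on group means, was 0.287 over the 18 libraries numbered 6 and above and 0.361 over the 20 numbered up to 5, where over all 132983586 pairs of tested genes it was -0.0002 and 0.0. With the 5 libraries left out, these medians were 0.331 and 0.317 for the set, against -0.0013 and -0.0015 for all pairs. By a permutation test within groups, adjusted over the 496 pairs of a set, 33 pairs correlated in the first and 154 in the second set, and 23 in both, all positively. The lowest r among the 23 was 0.635 in libraries numbered 6 and above and 0.538 in those up to 5. Both values were reached by 11.3% of the pairs of the set, against 4.2% of all pairs of genes, and without the 5 libraries by 8.47% against 2.08%, a description with no test, since pairs share genes and libraries. Sgk1 and Arl4d were each in 5 of these 23 pairs, Tsc22d3 in 4, and Mt1, Mt2, Rhob, Arrdc2 and Map3k6 in 3. Fam107a, Klf9, Txnip and 9 others were in none.

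The neighbours Mt1 and Mt2 gave the highest correlation, with r = 0.954 and rho = 0.967 in libraries numbered 6 and above (n = 18, permutation p = 1e-05 for both, the smallest these permutations give) and r = 0.963 and rho = 0.943 in those up to 5 (n = 20, permutation p = 1e-05 for both). Without the 2 libraries farthest from the median of Mt1, r was 0.946 and 0.94, and without the 5 libraries that stood apart it was 0.949 and 0.776. Mt1 also followed Rhob (r = 0.866 and 0.936, rho = 0.773 and 0.820) and Usp2 (r = 0.825 and 0.909, rho = 0.829 and 0.817). Ddit4 followed Arl4d (r = 0.858 and 0.872, rho = 0.723 and 0.794), and Arl4d followed Arrdc2 (r = 0.889 and 0.818, rho = 0.829 and 0.776). For these 4 pairs permutation p was at most 0.00254 for either measure, and without the 2 libraries farthest out r was between 0.712 and 0.906. Sgk1 followed Pdk4 (r = 0.821 and 0.812, rho = 0.775 and 0.857, permutation p at most 0.00062), with r = 0.698 and 0.753 without the 2 libraries farthest out. Over these 6 pairs the adjusted permutation p of r ran from 0.000992 to 0.0236.

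The 2 kinds of pair parted when the 5 libraries were left out. Sgk1 and Pdk4 then correlated at 0.839 and 0.943, while in libraries numbered up to 5 r was 0.474 for Ddit4 with Arl4d, 0.487 for Arrdc2 with Arl4d and 0.615 for Mt1 with Usp2. Over all pairs, 4 of the 23 were then still called in both sets, with 17 and 16 libraries. Correlation says nothing of shared control, and the libraries of a pair share their tissue and depth.

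**Figure D5:**
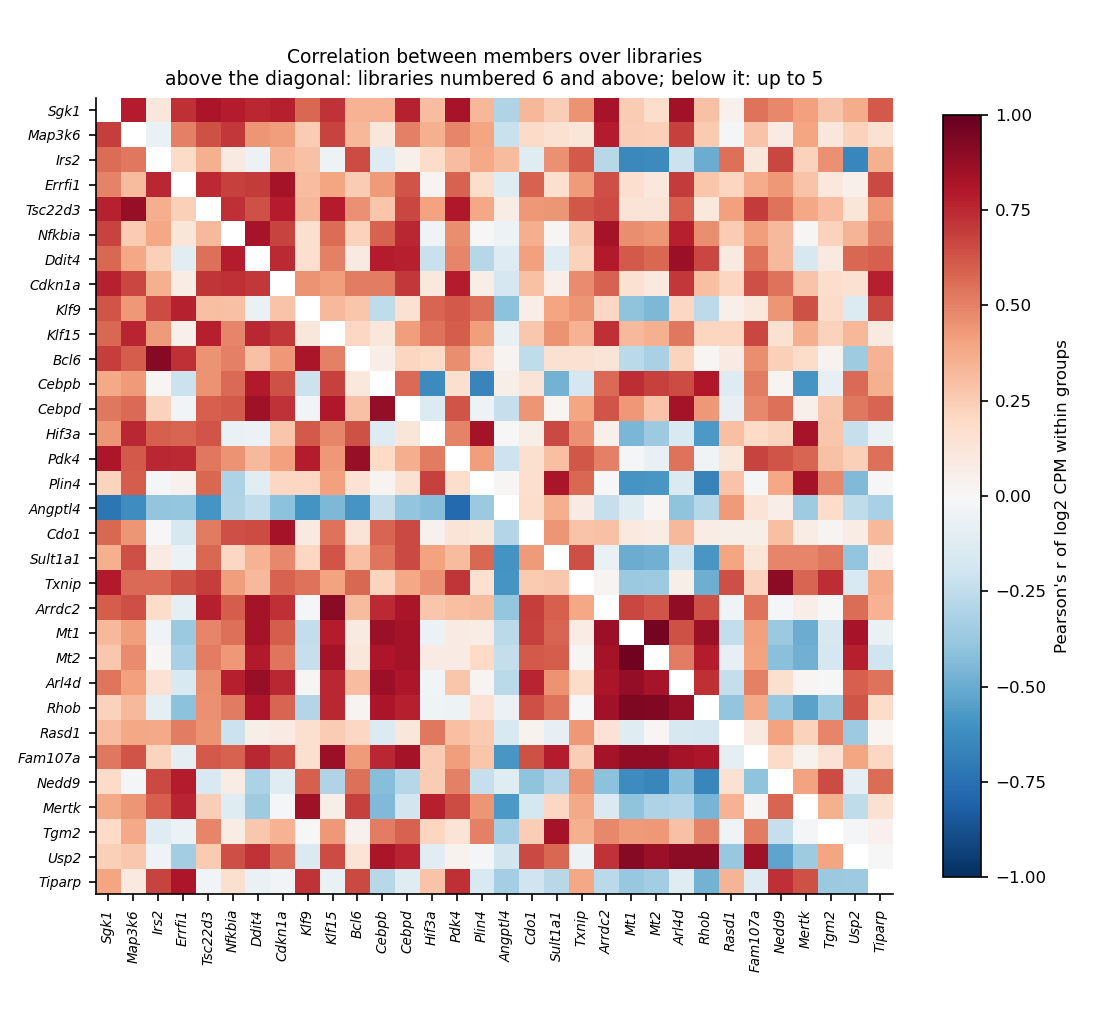
Pearson's r between each pair of the 32 genes over libraries, within groups, for libraries numbered 6 and above (above the diagonal) and up to 5 (below it); red is positive. Most cells are red in both triangles, and the darkest cells include Mt1 with Mt2, at r = 0.954 and 0.963.

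Some levels carry limits from the gene models. Exons of Cebpb, Txnip and Cebpd overlap a gene on the other strand over 20.7%, 19.4% and 15.0% of their length, and the strand setting of the counting is not given in the sources used here. Of the 50-base words of Sult1a1 6.59% occur in another gene, and of those of Mt1 and Mt2 0%.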

How the data were processed

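The authors deposited unscaled read counts by gene symbol for each library, judged so from whole numbers with unequal totals. STAR, featureCounts, DESeq2 and mm10 are named per the submitters' processing notes. Versions, annotation, strand setting and filters were not given in the sources used here. Per the labels' protocols, libraries were stranded and poly-A selected. No column of another sample was left over.

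Counts were tested with edgeR 4.0.16 (quasi-likelihood, filterByExpr by group, TMM, a mean per group over 38 libraries), with limma 3.58.1 voom and DESeq2 1.42.0 as alternatives, and Benjamini-Hochberg adjustment over 16309 genes with a threshold of 0.05. CPM were computed on effective library sizes. The scripts were tested on simulated counts. Correlations used log2 CPM (prior count 2) and 100000 permutations within groups. Lengths and overlaps came from GENCODE M21. Numbers did not pair libraries: same-numbered libraries deviated together at a mean r of 0.219, other numbers of the same set at 0.214.

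The genes, lists and alternatives were chosen with earlier results of these data known, as was the rule for naming genes: the smallest unadjusted p per direction, 3 for stress and the interaction and 2 elsewhere, with every gene that passed, and Sgk1, Tsc22d3, Klf9, Mt1 and Mt2 whatever their result. Of the other lists at most 3 genes were to be named.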

Additional observations from a re-analysis of the deposited data

Results flagged for a closer look

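In 11 of the 128 combinations of a tested gene and a group, 1 library lay far from the others of its group, with a gap to the nearest value above Dixon's 95% critical value. That value flags about 1 group in 20 when values are normal and independent. Here CPM were not logged, all 11 flags were on the highest library, and genes share libraries. The count is therefore not compared with that rate. Of the 11, 4 were in female stressed library 2. In that library Klf15 stood at 75.1 CPM (next value 52.9), Cebpb at 6.94 (4.13), Cebpd at 7.07 (3.23) and Sult1a1 at 17.0 (12.6). In male stressed library 4, Ddit4 stood at 42.2 CPM (33.6) and Pdk4 at 28.9 (18.4), and Pdk4 also stood apart in male control library 4 at 29.9 CPM (19.1). Bcl6 reached 48.1 CPM in female control library 1 (40.4), Rhob 338 CPM in male control library 3 (260.1), Mertk 57.3 CPM in male stressed library 3 (47.8) and Plin4 59.4 CPM in female control library 7 (31.2). Female stressed library 2, female control library 1 and male control library 3 are among the 5 with high oligodendrocyte markers.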

How the results depend on the processing

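The number of genes that passed for stress in males, in females, on average and for the interaction was 0 under every alternative run, and so was that for sex in stressed mice. With the replicate block it was 0 in each of these and in the other sex contrasts. For sex in controls 2 passed by DESeq2 (Plin4, Mertk), 2 by voom (Hif3a, Mertk), 1 without the 5 libraries that stood apart (Plin4), 1 without these and male stressed library 5, and 0 to 2 when 1 library was left out (2 without female control library 6, 1 without male control library 4 or 10). For sex on average 2 passed by DESeq2, 3 by voom, and 0 to 2 when 1 library was left out (2 without female control library 3 or 10 or male control library 4, and 1 without male control library 6, male stressed library 4 or female stressed library 3, 4, 5 or 7). Beside these, 0.0911% of all genes passed for sex in controls without the 5 libraries. For sex on average, 0.368% of all genes passed by DESeq2 and 0.411% by voom. In the other fits the share of all genes is not given here, so their counts are not read as a result about the set. The cause of the differences between fits was not tested. Between number sets 12 passed, against 45.5% of all genes, and 14 passed by voom and 16 without the 5 libraries. For these last 2 fits the share of all genes is not given here. Their higher counts are therefore not read as a result about the set. Of the 23 pairs, 10 were called by Spearman's rho and 4 without the 5 libraries, where fewer libraries enter.

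With the library left out that brought it nearest to or past 0, the stress value of 13 of the 32 genes in females and 7 in males changed sign, and 14 and 15 more shrank by over 1.5 times. For sex 4 changed sign in stressed mice, 2 in controls and 1 on average, and 14, 13 and 9 shrank by that much. The sign of some small values changed. For stress in females Mt2 gave -0.14 by voom, -0.29 from number 6, -0.089 without the 5 libraries, -0.083 without these and male stressed library 5, and -0.12 to 0.31 when 1 library was left out. Mt1 gave -0.33 from number 6 and -0.048 to 0.48 with 1 left out, and Usp2 -0.043 from number 6. For stress in males Klf9 gave -0.0096 up to number 5 and -0.0060 to 0.25 with 1 left out, and Sgk1 -0.42 to 0.034. For sex, Rasd1 in controls gave -0.0023 and Tiparp on average -0.094 from number 6.

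With 9 or 10 libraries a group, and a biological coefficient of variation of 0.266, a gene that did not pass is not shown to be equal between groups. Errors here cover libraries, which the labels do not tie to animals.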
